A study of Rattus norvegicus with 93 samples.

Results

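Topotecan was infused before oxaliplatin in 4 rats, and 4 other rats received saline before the same oxaliplatin infusion. Femoral marrow of these 8 rats, out of 93 in the whole series, was taken 24 h after dosing ended and compared on expression arrays, 1 array per rat. The comparison was set by the labels of the arrays, title group 5M against title group 7M at 24 h, and no measured value enters that rule. It asks what topotecan added to marrow that also received oxaliplatin.

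All rats were male Sprague-Dawley rats, 8 weeks old. Each received intravenous infusions of 30 min each with 30 min between them, and marrow was flushed from the left femur. The topotecan/oxaliplatin rats (animals 53, 54, 59 and 60) received topotecan at 4.7 mg/kg and then oxaliplatin at 15 mg/kg. The NaCl/oxaliplatin rats (animals 77, 78, 83 and 84) received 0.9% NaCl, the vehicle of topotecan, and then oxaliplatin at the same dose. For the same first infusion without oxaliplatin, 3 topotecan/D5W rats were set against 4 NaCl/D5W rats at 24 h, where D5W, 5% dextrose in water, is the vehicle of oxaliplatin. The same contrast was also read at 1 and 6 h in other rats, 4 a group, and in 4 oxaliplatin/topotecan and 4 oxaliplatin/NaCl rats at 24 h that received the infusions in the other order. The rats carried no tumor, and each had an indwelling femoral vein cannula. No marrow was measured before dosing.

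Topotecan holds topoisomerase I on DNA at the point where the enzyme has nicked a strand, and the nick becomes a break when a replication fork runs into it. Oxaliplatin forms platinum cross-links between bases, which block replication and transcription. Marrow is among the most rapidly dividing tissues: red cell, granulocyte and platelet precursors divide there beside macrophages, lymphocytes, vessels and bone-lining stroma. Cells that sense nucleic acid out of place release type I interferon, which acts through STAT and IRF factors on elements in the promoters of antiviral genes.

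Values are log2 signals, on which a difference of 1 is a 2-fold change, and each probe set is compared with itself between groups. A probe set was called at a Benjamini-Hochberg adjusted p under 0.01 with a fold above 2 in limma, and within the gene lists a member passed at an adjusted p under 0.01 whatever its fold. With topotecan added, 206 of 12532 probe sets were called, which is 1.64%, with 108 higher and 98 lower. Of these, 188 had the 4 rats of one group all above the 4 of the other. Over all probe sets, 10.7% lay with every topotecan/oxaliplatin rat above every NaCl/oxaliplatin rat and 13.5% with every one below. Without a fold limit, 8.71% of 7810 genes were higher and 9.27% lower, and the median difference over all genes was -0.01. These 2 shares are the background for the gene lists. No pair of arrays was identical. The array medians of the 8 rats ran from 8.95 to 9.11, with no detectable difference between the groups (exact permutation test, two-sided, p = 0.657, where the smallest p possible for 4 against 4 is 0.029). The deposited values were quantile normalized, which draws the arrays together, so this test cannot show that total RNA signal was alike. Marrow is a mixture of cells, so here and below fewer cells of a type and less RNA per cell cannot be told apart.

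Defining markers of the marrow cell types were looked up first. All 6 of the T and NK cell markers, 5 of 6 macrophage markers, 3 of 4 megakaryocyte and 4 of 6 red cell precursor markers were in the table. Of the 6 neutrophil line markers 3 were present (Camp, S100a8 and Mmp8), and of the 6 B cell markers Cd79b alone, so that B cell precursors were poorly covered. Skeletal muscle markers, which would come from tissue around the bone, had 4 of 5 present. The mean over 25 skeletal muscle genes was 7.22, 6.38, 5.80 and 5.82 in animals 53, 54, 59 and 60, against 5.91, 6.26, 5.77 and 5.95 in animals 77, 78, 83 and 84. Animal 53 thus stood above the other 7 rats for muscle genes, and several results that change without it are given with both values. None of the 25 genes passed the test.

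**Figure D1:**
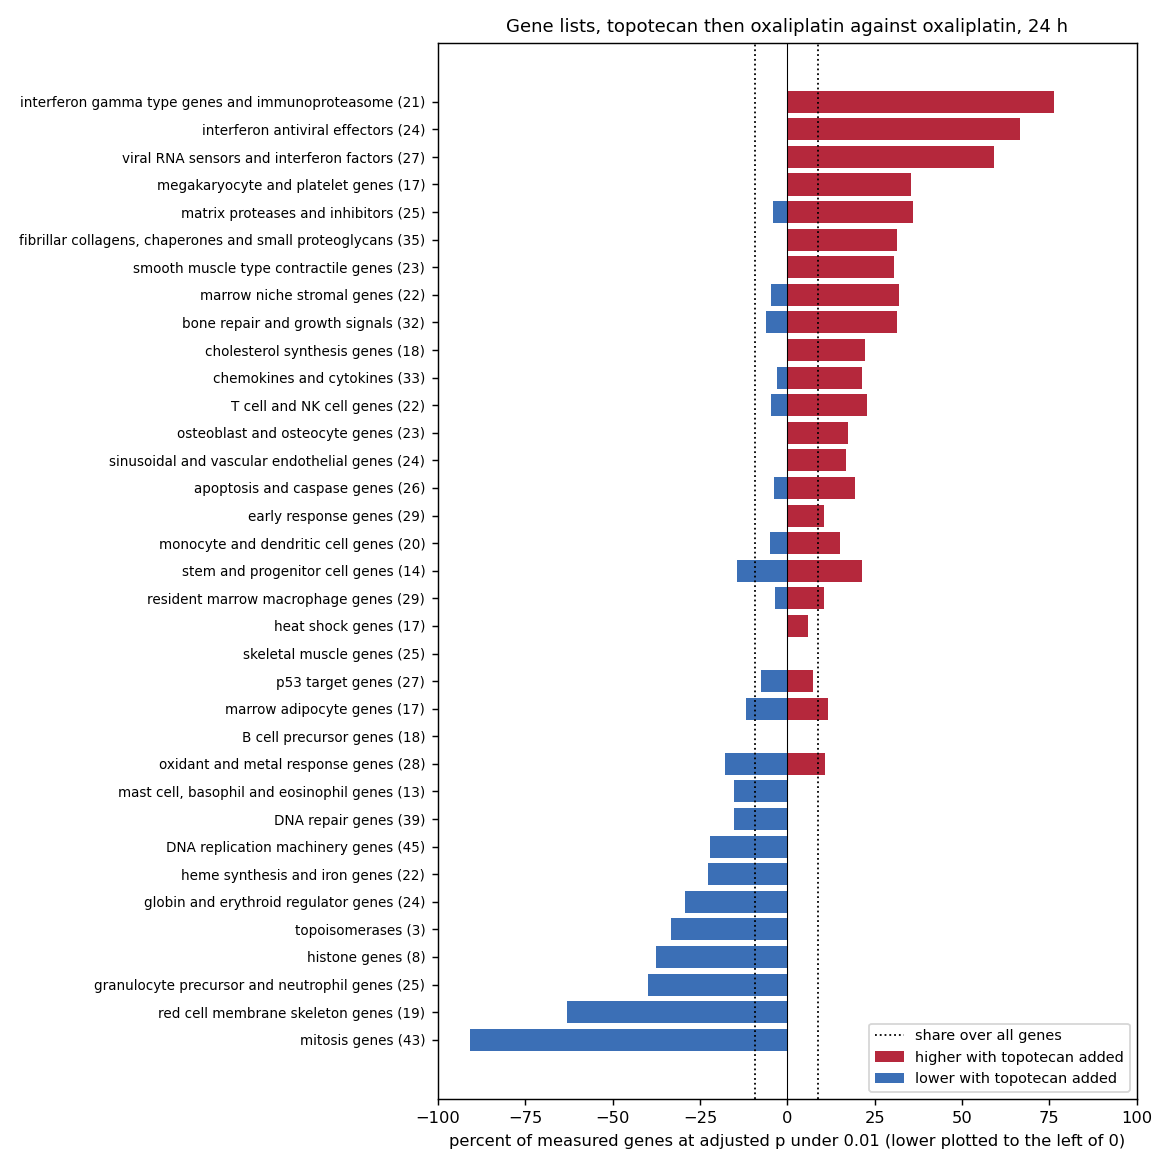
Percent of the measured genes of each list at an adjusted p under 0.01, topotecan/oxaliplatin against NaCl/oxaliplatin at 24 h, with higher genes to the right of 0, lower genes to the left and the number measured in brackets. The dotted lines are the shares over all 7810 genes (8.71% higher, 9.27% lower); of the lists drawn, which leave out the 7 genes the study singles out, the 3 interferon lists reach farthest right and the mitosis and red cell membrane lists farthest left.

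Interferon-induced antiviral genes led the increases. Of 24 measured antiviral effectors 16 were higher and 0 lower, with a median log2 difference of 1.31. Of 27 sensors and interferon factors 16 were higher and 0 lower, with a median of 0.49, and of 21 genes of the interferon gamma type, including the immunoproteasome, 16 were higher and 0 lower, with a median of 0.53.

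The promoters of these genes are shown because the listed genes moved together. The core of the interferon response element, searched on both strands as GAAA, 2 bases of any kind and GAAA again, lay in 3.77% of 27457 promoters of RefSeq (build GRCr8, 250 bases before to 50 after each gene start). It lay in 11 of the 16 antiviral effectors with a promoter in that table, in 7 of 21 sensors and in 12 of 19 genes of the interferon gamma type. Below are the 120 bases before the start of 3 genes described in the next paragraphs, 5′ to 3′ on the gene's strand, with the match in capitals. Ifit3 encodes an antiviral tetratricopeptide protein (chr1:241527206-241527325, plus strand), Ifi44 an interferon-induced cytoplasmic protein (chr2:243303841-243303960, minus strand) and Gbp4 a guanylate-binding GTPase (chr2:233978366-233978485, plus strand).
Ifit3: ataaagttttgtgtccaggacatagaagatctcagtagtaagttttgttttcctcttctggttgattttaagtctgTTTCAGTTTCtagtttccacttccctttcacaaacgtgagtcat
Ifi44: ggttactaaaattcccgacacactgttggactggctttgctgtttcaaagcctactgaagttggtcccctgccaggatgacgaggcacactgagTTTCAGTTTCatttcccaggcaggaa
Gbp4: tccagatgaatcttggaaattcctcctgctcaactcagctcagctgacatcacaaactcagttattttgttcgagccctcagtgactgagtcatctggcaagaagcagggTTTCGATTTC
The match is on the other strand in each of the 3, and it starts 44, 26 and 10 bases before the gene start. Mx1 and Herc6 had no match before the start within this window.

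Mx2, a dynamin-like GTPase that blocks viruses, had the largest increase of any gene by the naming rule. It read 11.33, 10.51, 11.35 and 8.20 in animals 53, 54, 59 and 60, against 7.72, 7.48, 7.46 and 8.11 in animals 77, 78, 83 and 84. In 3 of the 4 topotecan/oxaliplatin rats Mx2 was thus far above every NaCl/oxaliplatin rat, while animal 60 lay just above the highest of them. The log2 difference was 2.65 (SE 0.42, limma adjusted p = 9.45e-06), a 6.3-fold change, whereas another probe set of Mx2 gave 1.28 (adjusted p = 0.0648).

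Isg15, a ubiquitin-like modifier, read 13.12, 12.51, 13.17 and 10.34 against 10.18, 9.45, 9.19 and 10.08, in the same order of animals. Again 3 rats were high and animal 60 was near the controls. The log2 difference of Isg15 was 2.56 (SE 0.50, limma adjusted p = 0.000189). Ifit3 read 12.29, 11.85, 12.47 and 10.14 against 9.78, 9.39, 9.07 and 9.91, a log2 difference of 2.15 (SE 0.48, limma adjusted p = 0.000808). The same rat stood low in Ifi44, at 10.32, 9.46, 9.84 and 8.03 against 7.22, 6.94, 6.89 and 7.27, where the log2 difference was 2.33.

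In the other antiviral genes among the largest increases animal 60 was again the lowest of the 4. Mx1 differed by 2.64 on the log2 scale, Ddx60, a helicase of the RNA sensing pathway, by 2.23, Ifi44l by 2.06, Rtp4 by 1.85 and Rnf213, a large ubiquitin ligase, by 1.67. Herc6, an ISG15 ligase, and Usp18, which removes ISG15 from proteins, were called with log2 differences of 2.49 and 2.37, but their groups overlapped. Herc6 read 6.19 in animal 60, within the NaCl/oxaliplatin range of 5.96 to 6.58, against 9.92, 9.02 and 9.79 in the other 3. Usp18 read 8.62 in animal 60, within a control range of 8.03 to 8.89. Of the 8 antiviral effectors that did not pass, Rsad2 gave -0.20, Ifitm1 -0.10 and Ifi27l2b 1.80.

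Over the 24 antiviral effectors the mean per rat was 11.79, 11.25, 11.55 and 10.14 in animals 53, 54, 59 and 60, and 9.90, 9.67, 9.61 and 9.94 in the controls. Animal 60 was the lowest of the 4 for 20 of the 24 genes, with a median excess over the control mean of 0.45 against 1.89, 1.38 and 1.76 in the other 3. It was also the lowest for 20 of the 27 sensors, but for 8 of the 21 genes of the interferon gamma type. By animal number, animals 53 and 54 against 77 and 78 gave 11 higher effectors (median 1.68), and animals 59 and 60 against 83 and 84 gave 3 (median 1.15). No share over all genes was taken for these sets of rats. Without animal 60, 18 effectors passed and their median difference was 1.64. Without animal 53, the rat with high muscle genes, 15 effectors passed with a median of 1.17, and 10 of the sensors in place of 16. For mitosis genes, described below, animal 60 did not stand back: its median excess was -0.99, against -0.81, -0.70 and -0.75 in the other 3.

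The same mean over antiviral effectors differed between rats of other groups as well. It was 10.12, 9.38 and 10.81 in the 3 topotecan/D5W rats and between 8.82 and 8.97 in the 4 NaCl/D5W rats. Given in the other order, the 4 oxaliplatin/topotecan rats lay between 10.13 and 11.73. Among the oxaliplatin/NaCl rats, which received no topotecan, 3 lay between 10.05 and 10.09 and animal 48 at 11.24. A high antiviral mean in single rats thus occurred with and without topotecan after oxaliplatin.

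**Figure D2:**
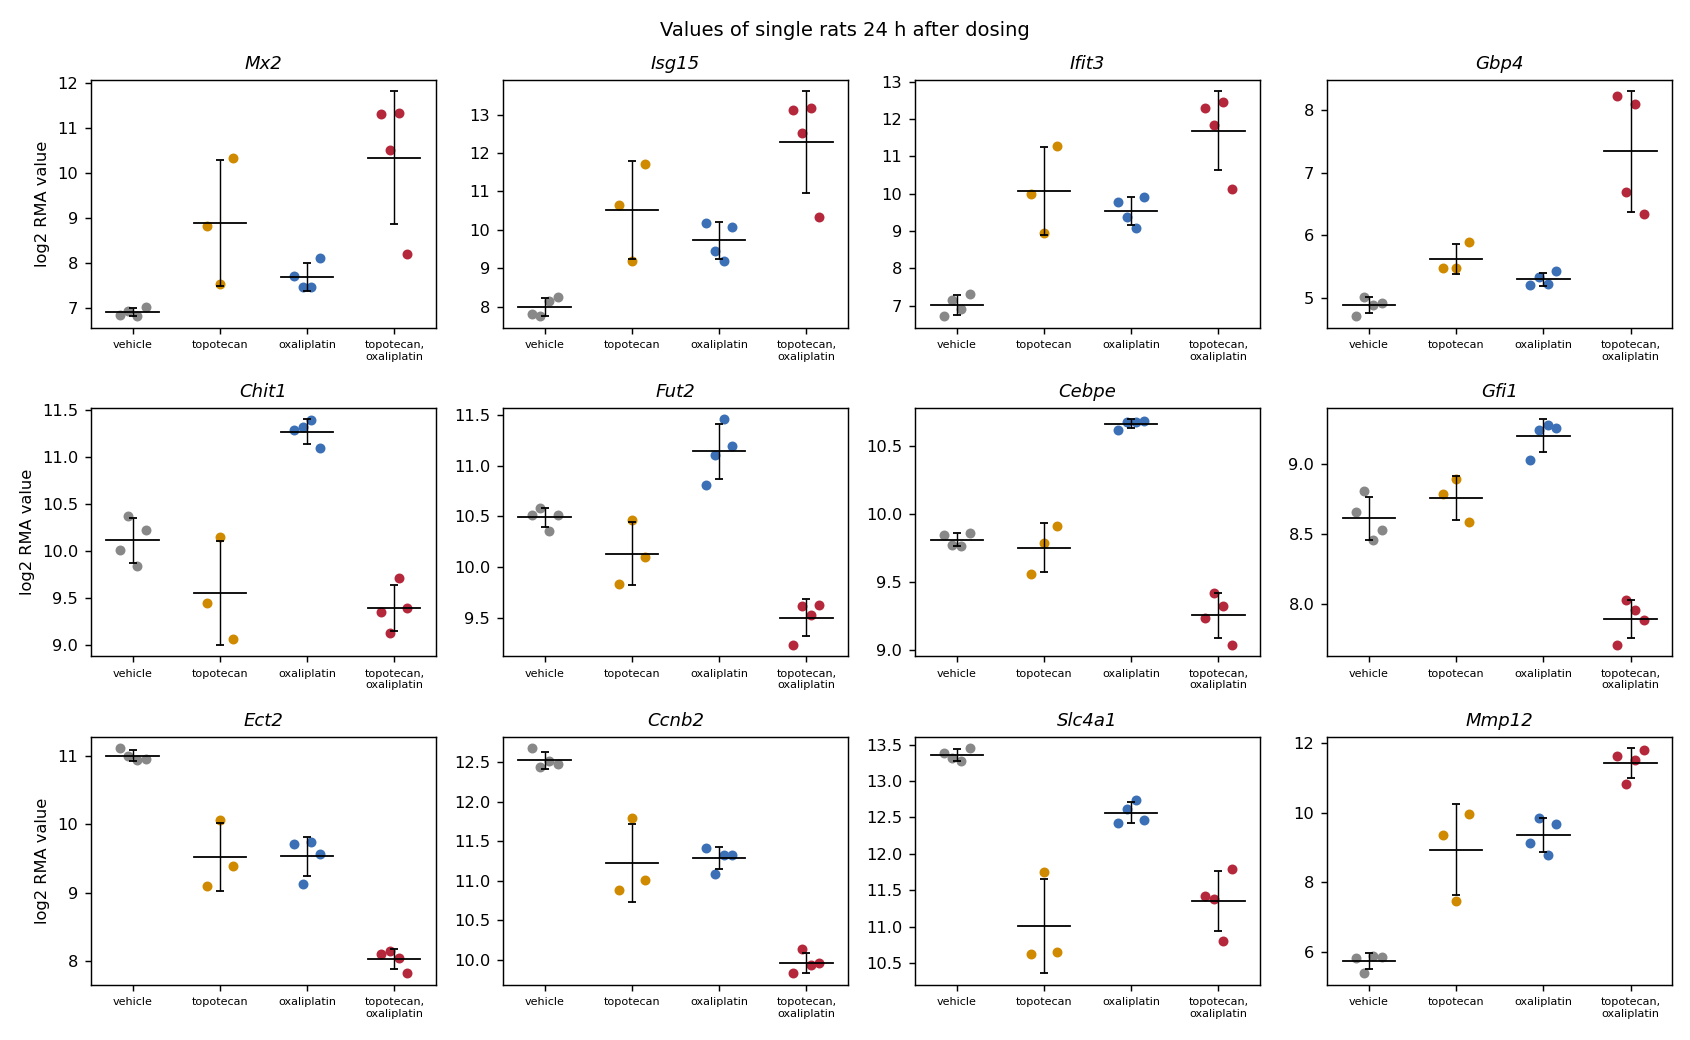
Log2 values of 12 genes in single rats 24 h after dosing, in the vehicle (NaCl/D5W), topotecan (topotecan/D5W), oxaliplatin (NaCl/oxaliplatin) and topotecan, oxaliplatin groups. Points are rats, and bars are the mean and SD of 3 or 4 rats. In the top row 1 topotecan/oxaliplatin rat lies apart from the other 3 for Mx2, Isg15 and Ifit3, while in the second row all 4 lie below every NaCl/oxaliplatin rat.

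Sensors and interferon factors rose by less. Irf7, the factor that amplifies type I interferon, read 13.09, 12.57, 12.89 and 11.19 against 11.20, 10.59, 10.77 and 11.20, so that animal 60 lay within the control range. Its log2 difference was 1.49 (SE 0.39, limma adjusted p = 0.00422). Dhx58, a helicase related to the RNA sensors, gave 1.27, Parp9 1.25 and Stat2, which carries the interferon signal to the nucleus, 0.78. Ifih1, the sensor of long double-stranded RNA, gave 0.44 and did not pass (adjusted p = 0.0305), and the receptor gene Ifnar1 gave -0.04.

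Among genes of the interferon gamma type, Gbp4 changed most. It read 8.23, 6.69, 8.10 and 6.35 against 5.20, 5.34, 5.23 and 5.43, and all 4 topotecan/oxaliplatin rats lay clear of the controls. The log2 difference of Gbp4 was 2.04 (SE 0.21, limma adjusted p = 5.06e-09). The chemokine Cxcl10, which draws T cells, read 9.06, 8.14, 9.50 and 7.69 against 7.22, 6.84, 6.84 and 7.04, a log2 difference of 1.61. Its relatives Cxcl11 and Cxcl9 gave 1.39 and 0.57, Gbp2 1.21 and Irgm 1.36. Subunits of the immunoproteasome, which cuts peptides for antigen presentation, moved by less: Psmb9 by 0.42, Psmb8 by 0.51 and Psmb10 by 0.53, each past the test. The peptide transporter Tap1 gave 0.34 and did not pass (adjusted p = 0.0327).

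Without oxaliplatin, topotecan left 18 of 24 effectors higher and 2 lower (median 1.47), against 18.5% of all genes higher and 17.4% lower there. Whether what topotecan added differed with and without oxaliplatin was tested as a difference of the 2 differences, for which 7.98% of all genes were higher and 7.44% lower. By that test 3 of 24 effectors were higher with oxaliplatin and 1 lower. For Mx2 the difference of differences was 0.67 (adjusted p = 0.49) and for Isg15 0.03 (SE 0.74, adjusted p = 0.983), and with errors of this size the additions cannot be called alike. Gbp4 did differ: topotecan added 0.73 without oxaliplatin and 2.04 with it, a difference of 1.31 (SE 0.31, limma adjusted p = 0.00163). Isg20, an exonuclease for viral RNA, lay on the same side, at -0.40 without oxaliplatin and 1.23 with it (difference 1.63, limma adjusted p = 0.00082).

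Genes of the neutrophil line were lower. Of 25 granulocyte precursor and neutrophil genes 10 were lower and 0 higher, with a median of -0.27, and for 16 of them every topotecan/oxaliplatin rat lay below every control. S100a8, a calcium-binding protein abundant in neutrophils, and Mmp8, the neutrophil collagenase, gave -0.05 and -0.08 and did not pass.

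Cebpe, the transcription factor that drives late granulocyte maturation and secondary granules, read 9.23, 9.42, 9.32 and 9.04 in animals 53, 54, 59 and 60, against 10.62, 10.68, 10.68 and 10.68 in animals 77, 78, 83 and 84. The groups were more than 1 log2 unit apart, with a difference of -1.41 (SE 0.13, limma adjusted p = 3.07e-10). Gfi1, a repressor that keeps granulocyte precursors on the neutrophil path, read 7.71, 8.02, 7.96 and 7.89 against 9.03, 9.24, 9.28 and 9.26, a difference of -1.31 (SE 0.10, limma adjusted p = 4.13e-12). Animal 60, near the controls for antiviral genes, was low with its group for both.

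Granule genes followed. Lcn2, the iron-chelating lipocalin of secondary granules, read 12.91, 12.95, 12.55 and 12.57 against 14.13, 14.30, 14.23 and 14.23 (difference -1.48, limma adjusted p = 2.96e-07). Fcnb, a ficolin of myeloid precursors, read 10.48, 8.53, 10.49 and 9.54 against 11.18, 10.80, 12.19 and 11.00 (difference -1.53, limma adjusted p = 1.47e-05). Camp, the cathelicidin, gave -0.58, Itgam, the integrin chain of mature myeloid cells, -0.99, and the defensin Np4 -0.31, each past the test. Padi4 gave -0.49 and did not pass (adjusted p = 0.0117).

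Without oxaliplatin, topotecan added little to this list: 4 genes were higher and 2 lower, with a median of 0.03. The test of the difference called 8 of 25 genes, all of them lower with oxaliplatin. For Cebpe topotecan added -0.06 without oxaliplatin and -1.41 with it, a difference of -1.35 (SE 0.19, limma adjusted p = 1.26e-06). For Gfi1 it added 0.14 and -1.31, a difference of -1.45 (SE 0.14, limma adjusted p = 4.19e-09). The group means place this: Cebpe averaged 9.81 in NaCl/D5W, 9.75 in topotecan/D5W and 10.66 in NaCl/oxaliplatin, and Gfi1 8.61, 8.75 and 9.20. Marrow after oxaliplatin alone thus held the highest Cebpe and Gfi1 values of the 4 groups, and marrow after both drugs the lowest, at 9.25 and 7.89.

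The list mean shows the same placing. It was 12.06, 11.96, 12.12 and 12.07 in the topotecan/oxaliplatin rats and 12.41, 12.46, 12.53 and 12.46 in the NaCl/oxaliplatin rats, while NaCl/D5W rats lay between 11.98 and 12.07 and topotecan/D5W rats between 12.02 and 12.19. The 4 NaCl/oxaliplatin rats thus stood above all the others, while animal 54 at 11.96 lay below the lowest NaCl/D5W rat and the other 3 rats that received both drugs lay within the range of the rats without oxaliplatin.

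Several of the largest decreases lie outside the neutrophil list and also differed with and without oxaliplatin. Genes of largest decrease were picked on the contrast with oxaliplatin, which is 1 side of that test, so the pick favors a difference in its own direction. The same holds for Cebpe and, among the increases, for Gbp4 above. List members such as Gfi1, Isg20 and Myb were named as examples of large differences, so the same limit applies to them. Chit1, a chitinase of macrophages, read 9.35, 9.12, 9.72 and 9.39 against 11.29, 11.32, 11.39 and 11.09, the largest decrease by the naming rule (difference -1.88, SE 0.20, limma adjusted p = 1.56e-08). Topotecan added -0.56 to Chit1 without oxaliplatin, and the difference of the differences was -1.32 (limma adjusted p = 0.00112). Fut2, a fucosyltransferase, read 9.23, 9.61, 9.53 and 9.63 against 10.81, 11.10, 11.46 and 11.20 (difference -1.64, SE 0.13, limma adjusted p = 8.91e-12). Cldn10, a tight junction claudin, fell by 1.52 on the log2 scale, Orm1, an acute phase glycoprotein, by 1.41, Ass1, an enzyme of arginine synthesis, by 1.41, Col8a2 by 1.45 and Noct, a circadian regulated phosphatase, by 1.43. Each of these 5 passed the test of the difference with and without oxaliplatin. Ugt8, a galactosyltransferase, fell by 1.77 and Inhba, the activin subunit, by 1.42, and their differences with and without oxaliplatin did not pass (adjusted p = 0.0285 and 0.0207). Myb, a factor of dividing progenitors, fell by 1.16 with oxaliplatin and gave -0.11 without it (difference -1.05, limma adjusted p = 0.000206).

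**Figure D3:**
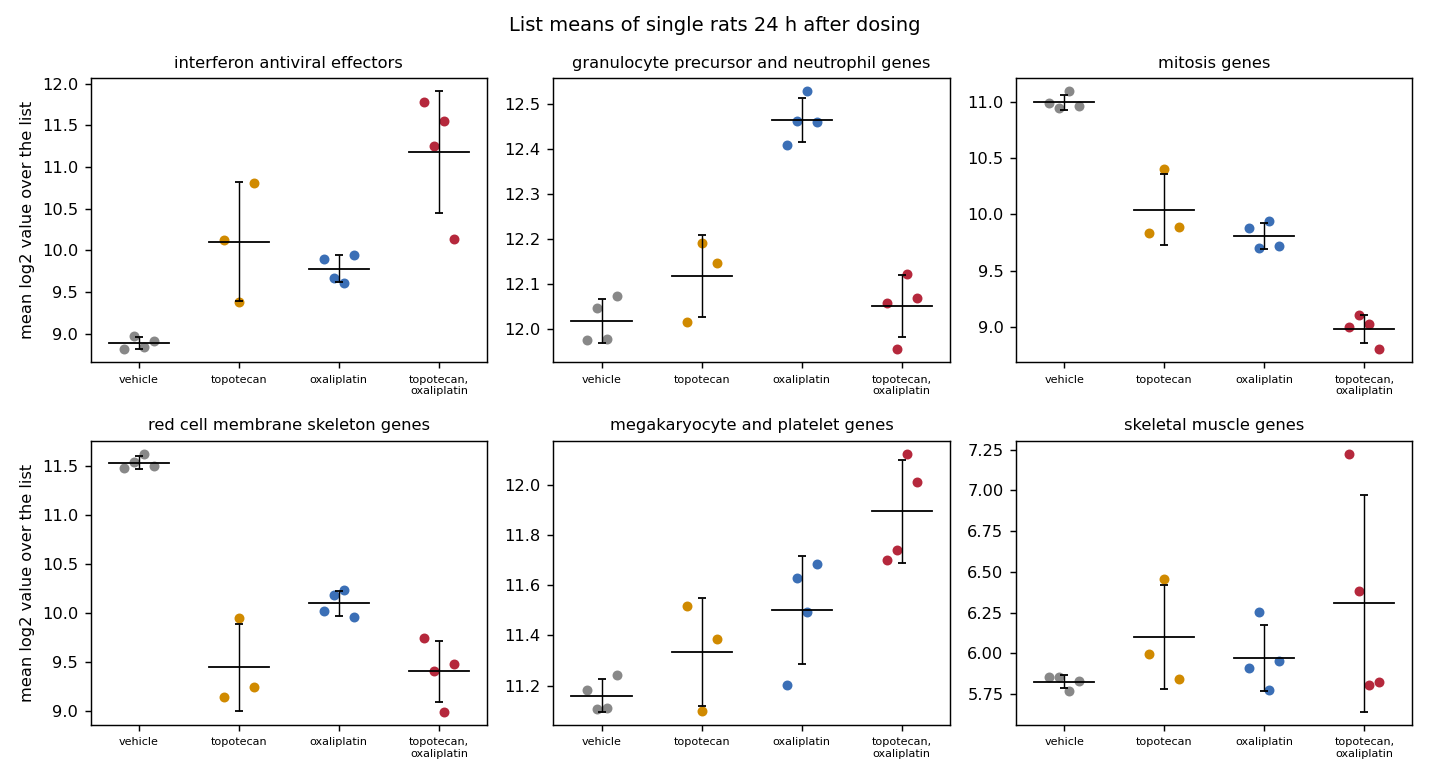
Mean log2 value over 6 gene lists in single rats 24 h after dosing, with the mean and SD of each group, for the groups of the plot of single genes. Topotecan/oxaliplatin rats lie at 8.8 to 9.10 for mitosis genes, below all others, while for neutrophil genes the 4 NaCl/oxaliplatin rats stand above the other groups, and animal 53 stands alone for skeletal muscle genes.

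Genes of mitosis were lower almost as a block. Of 43 mitosis genes 39 were lower and 0 higher, with a median of -0.83, and for 39 the groups did not overlap. Every rat took part: the list mean was 9.00, 9.10, 9.03 and 8.8 in animals 53, 54, 59 and 60, against 9.88, 9.70, 9.94 and 9.72 in the controls.

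Promoters of mitosis genes often carry a cell cycle homology element next to a repressor site, and its core, searched as TTTGAA on both strands, lay in 26 of the 38 mitosis genes with a promoter and in 18.1% of all 27457 promoters. The 120 bases before the start of 2 genes described below are given 5′ to 3′ on the gene's strand (GRCr8), with matches in capitals: Ccnb2, cyclin B2 (chr8:79981659-79981778, minus strand), and Mki67, the antigen that marks dividing cells (chr1:199952594-199952713, minus strand).
Ccnb2: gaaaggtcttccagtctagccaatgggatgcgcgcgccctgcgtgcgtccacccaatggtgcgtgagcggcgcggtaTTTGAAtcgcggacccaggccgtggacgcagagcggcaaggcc
Mki67: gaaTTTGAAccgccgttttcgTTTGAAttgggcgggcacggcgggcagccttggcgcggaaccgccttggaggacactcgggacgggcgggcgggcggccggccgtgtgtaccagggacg
Ccnb1 and Cenpf had no match before the start in this window.

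Ect2, which triggers the cleavage of the dividing cell, read 8.10, 8.15, 8.05 and 7.82 against 9.71, 9.12, 9.74 and 9.56, a difference of -1.51 (SE 0.16, limma adjusted p = 1.56e-08). Ccnb2 read 9.83, 10.14, 9.93 and 9.96 against 11.41, 11.08, 11.33 and 11.33, a difference of -1.32 (SE 0.13, limma adjusted p = 5.06e-09). Mki67 read 10.52, 10.33, 10.28 and 9.86 against 11.71, 11.15, 11.48 and 11.58, a difference of -1.23. No topotecan/oxaliplatin rat reached the lowest control for any of the 3. Cenpf, a kinetochore protein, fell by 1.36, Ccnb1 by 1.28 and Top2a, the topoisomerase of dividing cells, by 0.98 on the log2 scale, while Top1, the target of topotecan, gave -0.32 and did not pass (adjusted p = 0.031). Of the 4 mitosis genes that did not pass, Aurka gave -0.44, Cenpt -0.54, Smc4 -0.26 and Cdc25b -0.25.

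Without oxaliplatin topotecan lowered 40 of 43 genes, with a median of -0.94. The list mean was 9.83, 10.40 and 9.89 in the 3 topotecan/D5W rats, animals 29, 35 and 36, and between 10.95 and 11.09 in NaCl/D5W rats. With 3 rats that spread, the additions with and without oxaliplatin cannot be called alike. By the test of the difference 1 of the 43 differed, the kinetochore gene Cenpk, which was higher with oxaliplatin. For Ect2 topotecan added -1.49 without oxaliplatin and -1.51 with it, a difference of -0.02 (adjusted p = 0.967). Ect2 averaged 11.01 in NaCl/D5W and 9.53 in NaCl/oxaliplatin, so the values after both drugs lay below those of either alone.

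For genes of the replication fork topotecan added less with oxaliplatin than without. The replication list mean lay between 10.47 and 10.62 in NaCl/D5W rats and between 9.35 and 9.51 in NaCl/oxaliplatin rats. The control of the comparison with oxaliplatin was thus already lower. After topotecan the list mean was 9.62 to 9.99 in topotecan/D5W rats and 9.05 to 9.31 in the rats that received both drugs. Of 45 replication genes 10 were lower and 0 higher, with a median of -0.25, whereas topotecan without oxaliplatin lowered 40 (median -0.75), and 17 of the 45 were higher with oxaliplatin by the test of the difference. Mcm2, a subunit of the replicative helicase, gave -0.23 with oxaliplatin and -0.80 without (difference 0.57, limma adjusted p = 0.00436), and Pcna, the sliding clamp, -0.09 and -0.51 (difference 0.41, limma adjusted p = 0.000273). Among the members that passed, those of largest decrease with oxaliplatin were E2f8, a repressor of the S phase program, at -0.86, and Dut, which keeps uracil out of DNA, at -0.59, where another probe set of Dut gave -0.36 (adjusted p = 0.127). Of 39 DNA repair genes 6 were lower and 0 higher, with the checkpoint kinase Chek2 at -1.03, and of 8 histone genes 3 were lower.

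Red cell genes were lower, with the membrane ahead of the hemoglobin pathway. Of 19 genes of the red cell membrane and its skeleton 12 were lower and 0 higher, with a median of -0.78. Of 22 heme and iron genes 5 were lower and 0 higher (median -0.26), and of 24 globin and erythroid regulator genes 7 were lower and 0 higher (median -0.30). The lower count of the globin and regulator list was 10 without animal 53 and 5 without animal 59.

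Slc4a1, the band 3 anion exchanger, read 11.43, 11.38, 10.80 and 11.80 against 12.43, 12.61, 12.74 and 12.47, a difference of -1.21 (SE 0.15, limma adjusted p = 2.96e-07). Ank1, the ankyrin that ties band 3 to spectrin, read 6.85, 6.26, 6.01 and 6.88 against 7.97, 8.15, 8.34 and 7.73, a difference of -1.55 (SE 0.20, limma adjusted p = 2.99e-07). Animal 59 was the lowest rat for 14 of the 19 membrane genes, with a median excess of -1.29, against -0.49, -0.64 and -0.66 in animals 53, 54 and 60. Of the 19 membrane genes 3 were lower in animals 53 and 54 against 77 and 78 (median -0.57) and 11 in animals 59 and 60 against 83 and 84 (median -0.95), again without a share over all genes for these sets. Rhag, an ammonia channel of the Rh complex, fell by 1.13, Epb42 by 1.06, Tfrc, the transferrin receptor, by 0.99, Slc25a37, which carries iron into mitochondria, by 0.97 and Ahsp, the alpha globin chaperone, by 0.83 on the log2 scale. The factors Gata1 (-0.01) and Klf1 (-0.52) and the heme enzyme Alas2 (-0.10) did not pass. Leaving out animal 54, 59, 77, 78 or 83 each left 3 of the 5 heme and iron genes past the test.

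Topotecan lowered red cell genes by more without oxaliplatin: 18 of 19 membrane genes (median -2.35), 18 of 22 heme and iron genes (median -1.60) and 18 of 24 globin and regulator genes (median -1.31). By the test of the difference 16, 18 and 16 genes of the 3 lists were higher with oxaliplatin than without and 0 lower. For Slc4a1 topotecan added -2.35 without oxaliplatin and -1.21 with it (difference 1.14, limma adjusted p = 0.000279), and for Ank1 -3.13 and -1.55 (difference 1.58, limma adjusted p = 0.000111). The mean over membrane genes lay between 11.48 and 11.63 in NaCl/D5W rats and between 9.96 and 10.23 in NaCl/oxaliplatin rats, so the control of the comparison with oxaliplatin was already lower. After topotecan it was 9.14, 9.95 and 9.24 in the topotecan/D5W rats and 9.74, 9.41, 8.99 and 9.48 in animals 53, 54, 59 and 60, ranges that overlap. For Gata1 topotecan added -1.37 without oxaliplatin and -0.01 with it.

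**Figure D4:**
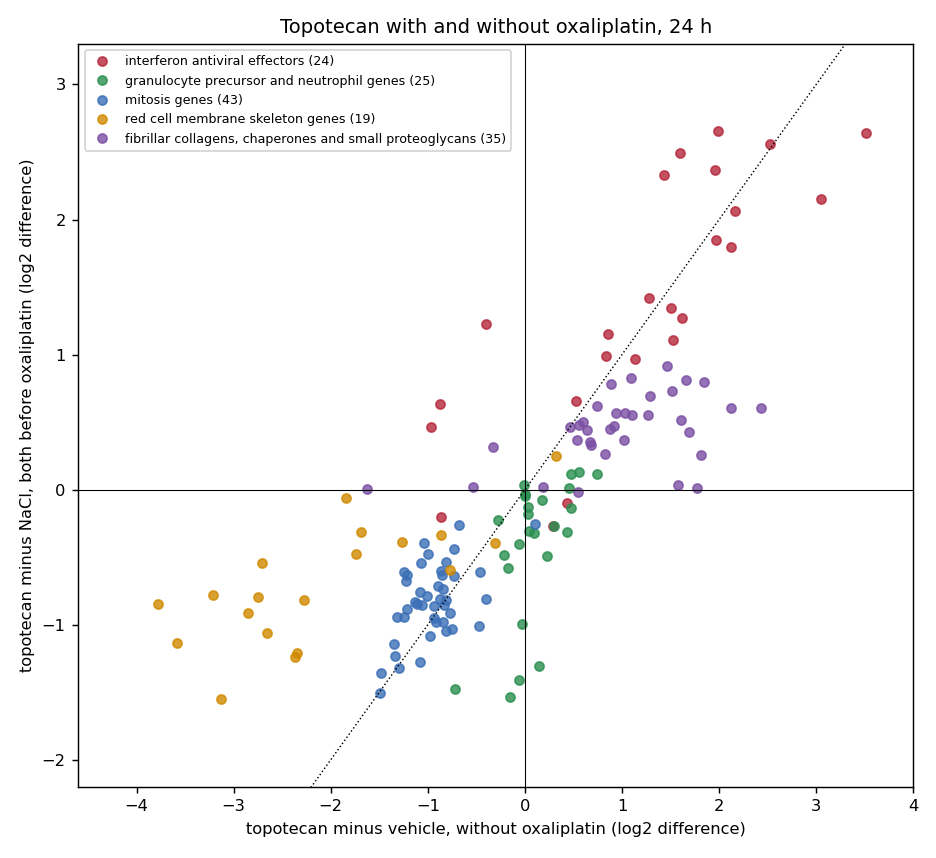
Log2 difference of single genes of 5 lists, with topotecan minus NaCl before oxaliplatin on the vertical axis and topotecan minus vehicle without oxaliplatin on the horizontal axis, all at 24 h and from rats that are not shared. On the dotted line both are equal; mitosis genes lie along it, most red cell membrane genes lie to its left, with medians of -0.78 against -2.35, and the lowest neutrophil genes lie near 0 on the horizontal axis.

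Platelet genes went the other way. Of 17 megakaryocyte and platelet genes 6 were higher and 0 lower, with a median of 0.36. Clec1b, a platelet receptor for podoplanin, read 11.79, 11.58, 12.04 and 11.89 against 10.85, 11.21, 10.81 and 11.12, with no overlap (difference 0.83, SE 0.17, limma adjusted p = 0.000422). Rab27b, which places granules, gave 0.72, Treml1 0.68 and Pf4, platelet factor 4, 0.29, each past the test, while the integrin Itga2b gave 0.33 and did not (adjusted p = 0.128). The count fell to 1 without animal 77 or 83, to 2 without animal 59 or 60 and to 3 without animal 54. Topotecan without oxaliplatin moved 0 of the 17 past the test, 0 also by the test of the difference.

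Macrophage, lymphoid and mast cell genes moved less. Of 29 resident macrophage genes 3 were higher and 1 lower, near the background shares, with Lyve1 at 1.19, the activating Fc receptor Fcgr3a at 0.93, the cathepsin Ctsl at 0.49 and Hmox1, heme oxygenase, at -0.66. The scavenger receptor Cd163 gave -0.19 and C1qa 0.02. Topotecan without oxaliplatin raised 20 of these 29 genes (median 0.74, against 0.05), and 9 were lower with oxaliplatin by the test of the difference. The macrophage list mean lay between 10.16 and 10.37 in NaCl/D5W rats and was already 11.20 to 11.40 in NaCl/oxaliplatin rats. After topotecan the list mean was 10.93 to 11.18 in topotecan/D5W rats and 11.35 to 11.56 in the rats that received both drugs. Of 20 monocyte and dendritic cell genes 3 were higher and 1 lower, and of 22 T and NK cell genes 5 were higher, led by the chemokine Xcl1 at 1.02 and the interleukin receptor chain Il2rb at 0.74. The granule membrane gene Nkg7 was lower in the same list, at 11.86, 12.26, 12.31 and 11.99 against 13.02, 13.06, 13.22 and 13.04 (difference -0.98, limma adjusted p = 4.24e-07). None of 18 B cell precursor genes passed by limma, and Cd79b gave -0.02. Of 13 mast cell, basophil and eosinophil genes 2 were lower, Ms4a2 at -0.81 and Epx at -0.78.

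Chemokines and cytokines rose in part, with 7 of 33 higher and 1 lower (median 0.38). Cxcl16, a membrane-bound chemokine, read 9.92, 9.80, 10.32 and 9.94 against 8.49, 8.67, 8.75 and 8.67 (difference 1.35, limma adjusted p = 1.59e-05), and all 4 rats, animal 60 included, lay above the controls. Ccl9 gave 1.23, Il18 0.93, Tnf 0.85 and Tnfsf10, the TRAIL ligand, 0.85, while Tnfsf13 fell by 1.00 on the log2 scale. Ccl2, the monocyte chemokine, gave 1.66 with no overlap but did not pass (SE 0.64, adjusted p = 0.0531).

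Matrix and stromal genes were higher in part. Of 25 matrix proteases and inhibitors 9 were higher and 1 lower (median 0.42). Mmp12, the macrophage elastase, read 11.63, 10.82, 11.51 and 11.79 against 9.12, 9.86, 8.78 and 9.67, and averaged 8.93 after topotecan alone and 5.73 after vehicle. Timp1, an inhibitor of such proteases, read 12.57, 12.58, 12.94 and 12.58 against 11.28, 10.63, 10.69 and 10.95 (difference 1.78, SE 0.27, limma adjusted p = 4.52e-06). For both, the 4 rats that received both drugs stood above the rats of every other group at 24 h among the 4 treatments of the plot of single genes (for Timp1 the highest of them was a topotecan/D5W rat at 12.03). Mmp2, a gelatinase, gave 0.96, while Mmp9 and Mmp13, the gelatinase of neutrophils and the collagenase of bone, gave -0.32 and -0.90 and did not pass. The lower member was Plaur, the urokinase receptor, at -0.66, which did not pass without animal 53, 54, 59, 78, 83 or 84. The count of higher members was 4 without animal 59.

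Of 35 collagen, chaperone and proteoglycan genes 11 were higher and 0 lower (median 0.47), with Lamb1, a laminin chain, at 0.91, Col3a1 at 0.83 and Pcolce, which helps trim procollagen, at 0.80. That count was 18 without animal 53, 7 without animal 60 or 78, and 5 without animal 59 or 83. The bone collagen genes Col1a1 (0.02) and Col1a2 (0.26) did not pass. Col8a1, a short-chain collagen outside that list, was among the 15 largest increases at 1.68, and its partner chain Col8a2 among the 15 largest decreases. Of 23 smooth muscle type contractile genes 7 were higher and 0 lower (median 0.37), a count that was 11 without animal 53, 4 without animal 60 and 3 without animal 59 or 83. Of 23 osteoblast and osteocyte genes 4 were higher (median 0.12), of 22 niche stromal genes 7 were higher and 1 lower, of 24 endothelial genes 4 were higher, a count of 7 without animal 53, and of 32 bone repair and growth signals 10 were higher and 2 lower, a count of 6 higher without animal 59 or 83 and of 1 lower without animal 53, 54, 77, 78 or 83. Without animal 53, 13 bone repair signals and 9 niche genes were higher. Without animal 59, 5 niche genes were higher. In the niche list the lower gene was Hp, haptoglobin (-1.36), which read 13.25 in animal 60, just below the lowest control at 13.26, against 11.40 to 11.89 in the other 3, and it did not pass without animal 54 or 59.

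The stromal counts differed by animal number, 2 rats against 2 in the same fit, and the difference between these sets of rats was not tested. No share over all genes was taken for these sets, so the counts have no background beside them. Animals 59 and 60 against 83 and 84 gave 315 called probe sets in all, against 206 in the whole comparison. Of the collagen list 0 genes were higher in animals 53 and 54 against 77 and 78 (median 0.24) and 17 in animals 59 and 60 against 83 and 84 (median 0.78). For smooth muscle type genes the counts were 0 and 12, for bone repair signals 0 and 11, for proteases and inhibitors 1 and 9, for niche genes 2 and 8, for endothelial genes 0 and 6, and for osteoblast genes 0 and 4. Skeletal muscle genes, high in animal 53, had medians of 0.55 and -0.05 in the same sets of rats, and their part in these counts was not tested.

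Without oxaliplatin, where the share of all genes higher was 18.5% in place of 8.71%, topotecan raised 30 of the 35 collagen, chaperone and proteoglycan genes (median 0.94), 14 of 23 osteoblast genes (median 1.22) and 17 of 25 proteases and inhibitors (median 0.74). By the test of the difference, 6 collagen list genes were lower with oxaliplatin and 2 higher, 4 osteoblast genes were lower, and 9 bone repair signals were lower and 3 higher. Of the other stromal lists 3 niche genes, 3 smooth muscle type genes, 2 proteases and 0 endothelial genes were lower, beside 7.44% of all genes, and of these lists 1 smooth muscle type gene was higher. The study singles out 7 genes, on samples that include these, for increases after both drugs when compared with single drugs. It set each treatment against vehicle controls, whereas here both groups of the comparison with oxaliplatin received oxaliplatin. Of these 7 genes 5 were higher with oxaliplatin and all 7 without. Without animal 59, 3 of the 5 passed. Leaving out animal 53 instead, 6 of the 7 were higher with oxaliplatin. The mean over the 7 genes lay between 7.29 and 7.42 in NaCl/D5W rats and between 9.76 and 10.26 in NaCl/oxaliplatin rats. The control of the comparison with oxaliplatin was thus already higher. After topotecan that mean was 9.35 to 10.41 in topotecan/D5W rats and 10.70 to 11.26 in the rats that received both drugs. For the collagen list the means were 8.45 to 8.70, 9.51 to 9.88, 9.37 to 9.98 and 9.80 to 10.43 in the same order of groups. Tnc, an extracellular matrix protein of wound repair, gave 0.02 with oxaliplatin and 2.64 without (difference -2.63, limma adjusted p = 3.68e-05), and Serpinh1, the collagen chaperone, 0.61 (adjusted p = 0.0143) and 2.43 (difference -1.82, limma adjusted p = 5.42e-06). Tagln, a smooth muscle actin binder, gave 0.96 and 2.72, Adamts9 0.77 and 2.28, Ccnd1, cyclin D1, 0.90 and 2.03, and Bmp2 0.89 and 1.96, where another probe set of Bmp2 gave 0.48 (adjusted p = 0.0103). Mmp12 alone of the 7 did not pass the test of the difference, at 2.08 and 3.20 (difference -1.12, adjusted p = 0.0881).

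Of 27 p53 target genes 2 were higher and 2 lower at 24 h (median -0.04), near the background shares, and Cdkn1a, the p21 inhibitor, read 10.78, 10.77, 10.95 and 10.35 against 10.12, 9.91, 9.78 and 10.38, a difference of 0.67 that did not pass (adjusted p = 0.031). Gdf15, a stress cytokine, read 9.07, 8.91, 8.21 and 9.24 against 10.16, 10.73, 10.42 and 9.07, a difference of -1.24 (adjusted p = 0.0221), while topotecan added 1.51 without oxaliplatin, a difference of -2.75 (limma adjusted p = 0.000856). No p53 target stayed higher without animal 59, 83 or 84. Of 26 apoptosis genes 5 were higher, a count of 2 without animal 53 and 3 without animal 59, 78, 83 or 84, and 1 was lower, Birc5, which also belongs to the mitosis list. Of 29 early response genes 3 were higher, led by Fos at 1.69, and of 17 heat shock genes 1. Of 28 oxidant response genes 3 were higher, with Sod2 at 0.81, and 5 lower, a count of 3 without animal 53, 54 or 83. Of 18 cholesterol synthesis genes 4 were higher, with Vldlr at 0.93 and Sqle at 0.55, a count of 2 without animal 53, 59, 77, 78 or 83.

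In the same contrast 1 h after dosing the picture differed. There 9.64% of genes were higher and 31.8% lower, 18 of the 27 p53 targets were higher (median 0.83) and 21 of 29 early response genes (median 0.78). Cdkn1a differed by 2.14 at 1 h, 0.24 at 6 h and 0.67 at 24 h, and Mdm2, the p53 ligase, by 1.25, -0.20 and -0.47. Antiviral effectors had 2 higher genes at 1 h (median 0.26).

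At 6 h 4.31% of genes were higher and 15.1% lower. By then 40 of 43 mitosis genes (median -0.99) and 40 of 45 replication genes (median -0.62) were lower, 4 of 24 antiviral effectors were higher (median 0.62) and neutrophil genes were split, with 4 higher and 4 lower. The skeletal muscle mean was 9.61 in topotecan/oxaliplatin animal 52 at 6 h, against 5.85, 5.79 and 5.84 in animals 51, 57 and 58. The 6 h values and the change from 6 to 24 h thus include a rat with high muscle genes.

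Whether the difference changed from 6 to 24 h was tested directly, and 4.57% of all genes were higher at 24 h and 1.33% lower. The increase in Gbp4 was larger at 24 h, at 2.04 against 0.12 (limma adjusted p = 3.27e-05), and that of Ifi44, at 2.33 against 0.50 (limma adjusted p = 0.00329). For Mx2 the differences were 2.65 and 0.83, for Isg15 2.56 and 1.30, and 3 of the 24 effectors passed the test of the change. Of the neutrophil list 8 genes were lower at 24 h than at 6 h, among them Lcn2 at -1.48 against 0.19 (limma adjusted p = 5.68e-05). Of the replication list 9 were higher at 24 h than at 6 h, and of the mitosis list 2 were higher and 1 lower. Gbp4, Ifi44 and Lcn2 were picked for a large difference at 24 h, which favors a larger difference at that time.

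**Figure D5:**
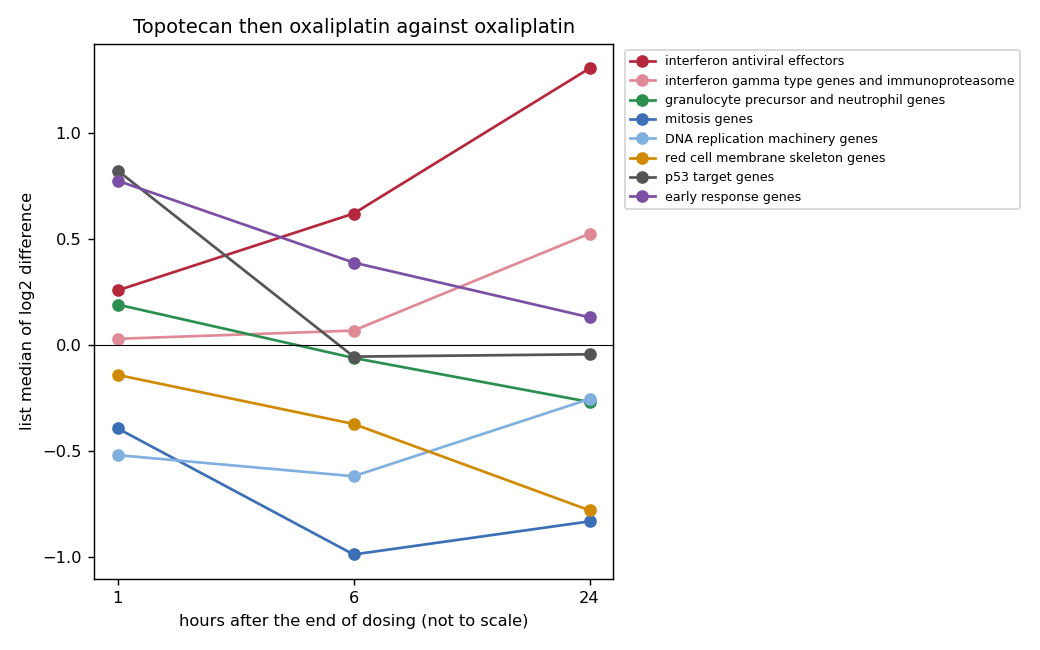
Median log2 difference over each of 8 lists, topotecan/oxaliplatin minus NaCl/oxaliplatin, at 1, 6 and 24 h, with the hours not drawn to scale and other rats at each time. Antiviral effectors are at 0.26, 0.62 and 1.31, p53 targets at 0.83, -0.05 and -0.04, and mitosis genes at -0.39, -0.99 and -0.83.

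Called probe sets were set against those of comparisons that share no rat with it. Of the 108 higher, 66 (61.1%) were also called higher by topotecan without oxaliplatin at 24 h, where 2.84% of probe sets were, and they were 18.5% of the 356 there. Of the 98 lower, 41 (41.8%) were also lower there, against 4.52% of probe sets, and they were 7.24% of 566. None was called in the opposite direction. At 6 h 13 of the higher (12%, against 0.766% of probe sets) and 22 of the lower (22.4%, against 0.997%) were called the same way, and at 1 h 1 (0.926%, against 0.974%) and 4 (4.08%, against 3.61%).

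With the order of the drugs turned, topotecan after oxaliplatin against NaCl after oxaliplatin, 6 of the 108 higher (5.56%, against 0.112% of probe sets) and 56 of the 98 lower (57.1%, against 0.79%) were also called. These were 42.9% of the 14 higher and 56.6% of the 99 lower there. Whether the addition by topotecan depended on the order was tested over all 93 arrays. No gene passed (0%), and over probe sets limma called 0, with a lowest adjusted p of 0.131 and 887 at an unadjusted p under 0.05. For Cebpe the difference between the orders was -0.23 (SE 0.20) and for Ect2 0.04 (SE 0.27), while for Mx2 it was 2.18 (SE 0.74, adjusted p = 0.614). The mean over mitosis genes lay between 8.52 and 9.16 in oxaliplatin/topotecan rats and between 9.86 and 9.97 in oxaliplatin/NaCl rats, again without overlap. For the neutrophil list the means were 11.96 to 12.22 and 12.34 to 12.51. The skeletal muscle mean was 8.59 and 8.57 in oxaliplatin/NaCl animals 41 and 42, against 6.04 and 5.91 in animals 47 and 48. Comparisons with the other order thus include rats with high muscle genes.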

How the data were processed

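Marrow RNA with an integrity number of at least 7.5 was hybridised to Affymetrix rat genome-wide expression arrays. Values in the deposited file are on the log2 scale, computed by the authors with RMA (background correction, quantile normalization, median polish) and filtered by pvac, a filter that drops probe sets whose probes do not move with each other. Of 12560 probe sets 28 controls were removed, 10002 had 1 symbol, 292 several and 2238 none, and symbols were updated through RefSeq. Of several probe sets for a gene, the one with the highest mean over 93 arrays was used. Group means were fitted with limma 3.58.1 in R 4.3.3 over the 47 arrays of 4 treatments at 3 times, and over all 93 arrays for order. Arrays have no read depth; their number limits the precision. The arrays were taken by their labels, but this comparison, its members, the lists and the naming rule were chosen with earlier results of these data known. The rule names the 15 genes of largest increase and of largest decrease that were called without overlap, list members as examples and the genes the study singles out; Herc6, Usp18, Gfi1, Myb and others are list members. Columns of comparisons by the authors were not used. Alternatives were a further normalization, no fold limit, fewer probe sets, array weights, a block by animal number and each rat left out.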

Additional observations from a re-analysis of the deposited data

Results flagged for a closer look

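Among the 15 genes of largest increase, the 15 of largest decrease and the genes the study singles out, topotecan added differently with and without oxaliplatin for 17 by limma's test of the difference of differences, on the log2 scale. It was higher with oxaliplatin for Gbp4 (1.31) and Ank1 (1.58). It was lower for Chit1 (-1.32), Fut2 (-1.28), Fcnb (-1.39), Cldn10 (-1.99), Col8a2 (-1.21), Noct (-1.09), Cebpe (-1.35), Orm1 (-0.92) and Ass1 (-1.77), and among the genes the study singles out for Tagln (-1.76), Ccnd1 (-1.13), Serpinh1 (-1.82), Tnc (-2.63), Adamts9 (-1.5) and Bmp2 (-1.07). Over all genes 7.98% were higher and 7.44% lower. The genes of largest increase and decrease were picked on the 24 h contrast, which is 1 side of this test. That pick favors a difference in its own direction, so the count is no independent result.

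The difference changed from 6 to 24 h for 11 of the same genes by the same kind of test. It was higher at 24 h for Ifi44 (1.83), Gbp4 (1.93) and Adamts9 (1.10), and lower for Chit1 (-1.5), Ugt8 (-1.43), Fut2 (-1.14), Lcn2 (-1.67), Noct (-0.99), Inhba (-1.59), Cebpe (-0.87) and Orm1 (-1.04). Over all genes 4.57% were higher and 1.33% lower, and the pick on the 24 h contrast favors a change here too.

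A single rat lay far from its group in 3 of 146 groups of values tested by Dixon's ratio, which chance alone passes in about 1 in 20. Timp1 was 12.94 in topotecan/oxaliplatin animal 59, with the nearest rat at 12.58. Cebpe was 10.62 in NaCl/oxaliplatin animal 77, with the nearest at 10.68. The mean over DNA replication genes was 9.51 in NaCl/oxaliplatin animal 83, with the nearest at 9.37.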

How the results depend on the processing

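Of 136 counts of called probe sets over all comparisons and settings 124 stayed within 1.5 times the reported count, and of 720 gene list counts 627. Of 366 values of named genes 351 kept their direction and their side of the threshold. No paired analysis was possible because each rat gave 1 array and its own number. Without the dimmest probe sets (those below the lower quartile of the means) the count for topotecan added before oxaliplatin at 24 h was 135, with 48 higher, and that of 24 h against 6 h was 88. Without a fold limit the counts were 1989 at 24 h, 4892 at 1 h, 2135 at 6 h, 4186 for topotecan alone, 1712 for with against without oxaliplatin and 634 for 24 h against 6 h. Within the second animal numbers alone (59 and 60 against 83 and 84) the 24 h count was 315. The test of order called 49 probe sets with array weights, 39 of them higher, and between 0 and 4 with 1 rat left out, namely 1 without topotecan/oxaliplatin animal 53 and 4 without oxaliplatin/topotecan animal 66. The causes of these changes were not tested. Leaving out 1 rat gave 164 to 242 probe sets at 24 h, the fewest without NaCl/oxaliplatin animal 83. Tnc, near 0 at 24 h, ran from -0.16 to 0.34 with 1 rat left out, and was -0.03, -0.16 and -0.08 without topotecan/oxaliplatin animals 54, 59 and 60 and -0.07 without NaCl/oxaliplatin animal 78 or 83. Ifi44l missed the threshold without animal 53, 59 or 83, Tagln without 59 or 83 and Adamts9 without 59, and Serpinh1 passed it without 53 or 77.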

Other observations

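Lists outside the comparisons above gave these counts for topotecan added before oxaliplatin at 24 h. Of 14 stem and progenitor genes 3 were higher (Hoxa10 at 0.69, Hoxa9 at 0.64 and Egfl7 at 0.33) and 2 lower, Myb and the factor Erg (-0.42). Another probe set of Egfl7 gave 0.53 (limma adjusted p = 0.011) and another of Erg -0.24 (limma adjusted p = 0.0834), neither past the test. The higher count was 1 without animal 59 or 60. Of 17 marrow adipocyte genes 2 were higher, Fabp5 (0.61) and the lipid droplet gene Plin2 (0.57), and 2 lower, the fatty acid transporter Cd36 (-1.28) and Acsl1 (-0.62). Neither adipocyte increase passed without animal 59 or 84, and 1 passed without animal 54, 60, 78 or 83. Of the 3 topoisomerases Top2a was lower.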
